A study of Mus musculus with 8 samples.

Results

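Collagen genes were taken as every row of the deposited count table whose symbol is Col, a number, the letter a and a number. The rule found 44 genes among 26642 rows, of which 22036 are annotated genes, and each of the 44 has an entry in the GENCODE M21 annotation (GRCm38). The libraries come from CT26, a mouse colon carcinoma line grown in RPMI medium with serum, in 2 genotypes of 4 libraries each: Tead1/4 knockout, and cells labelled WT. Tead1 and Tead4 encode transcription factors that bind DNA and recruit YAP and TAZ, through which Hippo signalling acts on genes. Neither the guides, the edited positions nor whether the knockout cells are 1 clone or a pool is given in the sources used here. Whether the replicates are separate cultures is not stated either, so each p-value reflects library-to-library spread that may be technical.

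Collagens are secreted or membrane proteins whose chains wind into a triple helix, made of copies of a single chain in some types and of several chains, each from its own gene, in others. Fibrillar collagens build the tension-bearing fibres of connective tissue, type IV chains form the sheet-like network of basement membranes, and type VI chains form beaded filaments near cell surfaces. In tumours most fibrillar collagen is usually laid down by fibroblasts, although carcinoma cells in culture can express collagen genes too. By the structural classes used here, 11 of the 44 genes are fibrillar, 6 are type IV, 6 are type VI and 9 are fibril-associated collagens (FACIT, which sit on the surface of fibres). The other genes comprise 3 short-chain network collagens, 2 multiplexins, 1 anchoring fibril collagen, 4 transmembrane collagens and 2 of other types.

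A count above 0 was found for 40 of the 44 genes in at least 1 library and for 18 in every library. The 4 genes at 0 throughout were Col9a1, Col9a2, Col25a1 and Col26a1. A count of 0 still allows up to 3 counts, or 0.0915 to 0.101 CPM (before TMM scaling) in these libraries, and that limit covers counting error only. Total counts per library lay between 29679405 and 32774905, and collagen rows held 0.329% to 0.425% of them in the knockout libraries and 0.191% to 0.309% in WT. CPM stands for counts-per-million, and all later levels are scaled by TMM factors. Tead1 stood at 51.2, 64.8, 76.3 and 77.8 CPM in knockout replicates 1 to 4, against 319, 155, 142 and 209 CPM in WT, with no overlap (p = 0.0286, two-sided exact permutation test, the smallest that 70 assignments allow). Tead4 stood at 25.9, 23.3, 31.2 and 37.0 CPM in the knockout libraries, against 52.1, 36.7, 39.4 and 63.2 CPM in WT, with overlap (p = 0.0571 in the same exact test; log2 fold change -0.71, adjusted p = 0.0261 in edgeR). Counts cover whole genes, so these levels check the labels only in part.

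Among the collagen genes with enough counts to test, most were higher in the knockout libraries. Of the 44 genes, 20 passed the filter on low counts, Col9a3 mainly through the knockout libraries. Of these 20, 13 rose and none fell in the knockout libraries at an adjusted p under 0.05 in edgeR's quasi-likelihood test, and the other 7 did not pass. Over all 13265 rows tested, 41.6% were called, 20.9% higher and 20.6% lower. Each of the 13 rose by at least 2-fold, and 13.8% of all rows were called at that size upward and 8.56% downward. The 4 knockout values lay above the 4 WT values for 13 of the 20 tested genes and below them for 0. Over all rows tested these shares were 21.1% and 19.6%. The separated genes are the same 13 that were called, so the separation is not separate evidence. The median log2 fold change was 1.34 over the 20 genes and 0.02 over all rows. Each log2 fold change is knockout minus WT, given with its standard error (SE), and an adjusted p is corrected by the Benjamini-Hochberg method over all rows tested. RNA was taken from whole cultures, so more cells that express a collagen and more RNA per cell cannot be told apart. At an unadjusted p under 0.05 the count of collagens that were lower was also 0, as it was in DESeq2 and limma-voom at an adjusted p under 0.05.

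**Figure D1:**
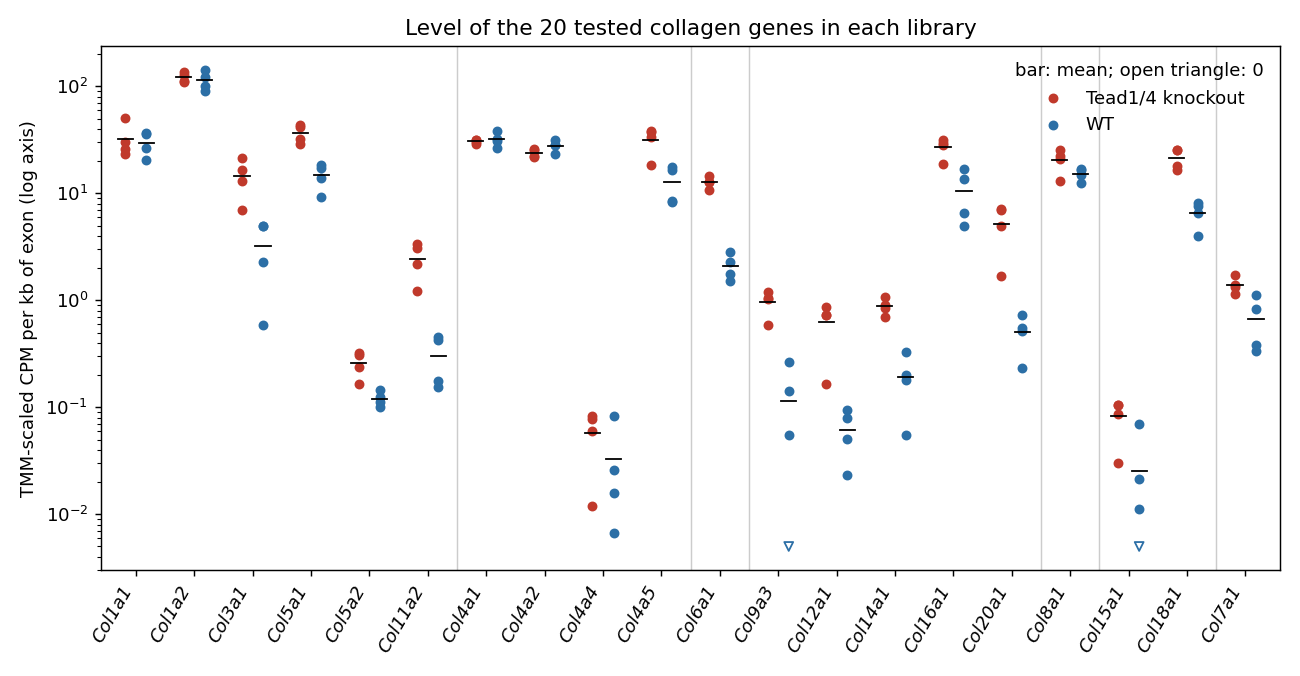
TMM-scaled CPM per kb of exon (log axis) of the 20 tested collagen genes in each of the 4 Tead1/4 knockout and 4 WT libraries, grouped by structural type, with black bars at the means and open triangles at 0. Col1a2 is the highest gene in both genotypes, the knockout points of 13 genes lie wholly above the WT points, and those of Col1a1, Col1a2, Col4a1 and Col4a2 are interleaved with them.

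The libraries differed within each genotype in ways that reached the collagens. WT replicates 2 and 3 both stood above replicates 1 and 4 for 14 of the 20 tested genes, and the opposite order was found for none of the 20. Over all rows tested these orders were found for 35.4% and 32.8%. Knockout replicate 1 was the lowest of the knockout libraries for 13 of the 20 genes, against 37.6% of all rows, and the highest for 5. Of the counts rather than the levels, WT replicates 1 and 4, and 2 and 3, were the closest pairs over all rows (chi-square per degree of freedom of 34.7 and 35.0, against 201.5 to 241.5 for the other WT pairs). With each of these WT pairs summed into 1 unit, 9 of 26 collagens tested were higher, as were 1652 of all 14382 rows tested. More collagens passed the filter in that setting than the 20 of the main fit. The calls for Col4a5, Col16a1, Col5a2 and Col7a1 were lost (adjusted p = 0.0508, 0.0512, 0.108 and 0.0953 in edgeR's quasi-likelihood test).

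Among the fibrillar collagens, 4 of 6 tested genes rose and the chains of type I, the main collagen of fibres, did not pass. Col1a2 (ENSMUSG00000029661; GRCm38 chromosome 6, 4504814 to 4541544, plus strand), the alpha2 chain of type I, had the most collagen counts of all. It stood at 1710, 1376, 1592 and 1398 CPM in knockout replicates 1 to 4, against 1117, 1532, 1777 and 1246 CPM in WT replicates 1 to 4. The genotypes overlapped, WT replicate 3 being the highest library, and the log2 fold change came to 0.10 (SE 0.20, adjusted p = 0.716 in edgeR). Col1a1 (chromosome 11, 94936224 to 94953042, plus strand), the alpha1 chain, stood at 334, 153, 197 and 169 CPM in the knockout libraries, against 242, 173, 235 and 134 CPM in WT. Knockout replicate 1 was the highest library and WT replicate 4 the lowest, the groups overlapped, and the log2 fold change came to 0.12 (SE 0.28, adjusted p = 0.750 in edgeR). Without knockout replicate 1 its sign turned (-0.20, edgeR adjusted p = 0.474), as it did without WT replicate 4. The sign of Col1a2 turned without WT replicate 1 (-0.006, edgeR adjusted p = 0.984).

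Type III collagen, which shares fibres with type I in soft tissues, rose. Col3a1 (ENSMUSG00000026043; chromosome 1, 45311538 to 45349706, plus strand) stood at 212, 68.6, 164 and 129 CPM in the knockout libraries, against 22.3, 48.1, 49.0 and 5.75 CPM in WT. The groups did not overlap, WT replicates 1 and 4 were far below replicates 2 and 3, and knockout replicate 2 was the closest to WT. The log2 fold change came to 2.20 (SE 0.59, adjusted p = 0.0152 in edgeR), a 4.58-fold difference, and it lay between 1.82 and 2.47 with 1 library left out. Beside it on the chromosome, 24.6 kb away on the opposite strand, lies Col5a2, the alpha2 chain of type V. Col5a2 was much weaker in level, at 1.58, 2.28, 2.94 and 3.12 CPM in the knockout libraries, against 0.957, 1.20, 1.38 and 1.06 CPM in WT. The groups did not overlap but lay close together, and the log2 fold change came to 1.11 (SE 0.33, adjusted p = 0.0249 in edgeR). That call was lost with the replicate number as a block (adjusted p = 0.0682) and without any single library other than knockout replicate 1 or WT replicate 3 (adjusted p = 0.0519 to 0.0831).

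Col5a1 (chromosome 2, 27886425 to 28039514, plus strand), the alpha1 chain of type V, a collagen that starts and limits the growth of type I fibres, rose more evenly. Its levels were 272, 248, 369.8 and 352 CPM in the knockout libraries, against 118, 157, 147 and 78.9 CPM in WT. Every knockout library stood above every WT library, and the log2 fold change came to 1.31 (SE 0.23, adjusted p = 0.00288 in edgeR). Exons of Col5a1 overlap those of 2810430I11Rik and Gm13372 on the opposite strand. Neither has a row among the counts, so any part of theirs in the Col5a1 counts is not known. Col11a2 (chromosome 17, 34039437 to 34066685, plus strand), the alpha2 chain of type XI, best known from cartilage, stood at 8.41, 15.01, 21.1 and 23.0 CPM in the knockout libraries, against 1.21, 2.94, 3.10 and 1.06 CPM in WT. The lowest knockout library, replicate 1, still stood above all WT libraries, and the log2 fold change came to 3.02 (SE 0.45, adjusted p = 0.00139 in edgeR). Col11a1, the alpha1 chain of type XI, had 2 counts over the knockout libraries and 0 over the WT libraries. The remaining fibrillar genes, Col2a1, Col5a3, Col24a1 and Col27a1, did not pass the filter, with at most 43 counts summed over a genotype.

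The RefSeq promoter windows printed here run from 250 bases before to 50 bases after a gene's start on GRCm38.p6, 5′ to 3′ on the gene's strand. They are shown for genes whose levels differed in contrasting ways, and for Col20a1 and Col18a1 also because of a motif match. The windows printed thus do not show how common the motif is among collagens. Of the 44 genes, 35 have at least 1 such window, 38 windows in all. Capitals mark GGAATG, the core letters of the motif that TEAD proteins bind, and CCAAT, the letters of a box found in many promoters, on either strand (CATTCC and ATTGG). The first pair is Col1a2, which did not pass, at chr6:4505368-4505667 on the plus strand, and Col3a1, which rose, at chr1:45311288-45311587 on the plus strand.
Col1a2: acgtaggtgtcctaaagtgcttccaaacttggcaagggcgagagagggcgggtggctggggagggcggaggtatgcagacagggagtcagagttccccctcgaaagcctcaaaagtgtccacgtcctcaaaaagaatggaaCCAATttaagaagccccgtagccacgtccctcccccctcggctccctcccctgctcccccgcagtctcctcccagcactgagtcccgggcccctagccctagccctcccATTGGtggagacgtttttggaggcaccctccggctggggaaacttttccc
Col3a1: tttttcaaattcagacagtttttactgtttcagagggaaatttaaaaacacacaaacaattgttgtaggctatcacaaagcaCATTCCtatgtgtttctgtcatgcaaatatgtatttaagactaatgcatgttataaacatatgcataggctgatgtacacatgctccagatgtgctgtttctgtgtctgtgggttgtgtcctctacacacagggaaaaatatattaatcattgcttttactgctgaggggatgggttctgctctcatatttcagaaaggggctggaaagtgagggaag
The Col1a2 window holds CCAAT letters 109 bases before the start and in reverse at the start, and no GGAATG. The Col3a1 window holds GGAATG in reverse, with its first base 168 bases before the start, and no CCAAT. No binding was measured here, so a match is a description of letters only.

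In type IV, the basement membrane collagen, the pair of chains found in nearly all basement membranes differed little and the alpha5 chain rose. Col4a1 (ENSMUSG00000031502; chromosome 8, 11198423 to 11312826, minus strand) stood at 224, 218, 235 and 236 CPM in the knockout libraries, against 199, 242, 288 and 230.4 CPM in WT. The groups overlapped, with WT replicate 1 the lowest and WT replicate 3 the highest library. Its log2 fold change came to -0.07 (SE 0.15, adjusted p = 0.724 in edgeR), and its sign was positive under upper-quartile scaling (0.11) and under plain library-size scaling (0.11). Col4a2 (chromosome 8, 11312805 to 11449287, plus strand) stood at 146, 148, 173 and 167 CPM in the knockout libraries, against 155, 186, 210.2 and 187 CPM in WT. The groups overlapped, and the log2 fold change came to -0.22 (SE 0.14, adjusted p = 0.226 in edgeR).

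Col4a1 and Col4a2 lie head to head on opposite strands, with their annotated starts 21 bases apart and their windows sharing 78 bases. Their first exons overlap in the annotation, so reads there can be split between them if strand was not used in counting. Their windows, shown because both genes changed little and share this start region, are at chr8:11312777-11313076 (minus strand) and chr8:11312555-11312854 (plus strand).
Col4a1: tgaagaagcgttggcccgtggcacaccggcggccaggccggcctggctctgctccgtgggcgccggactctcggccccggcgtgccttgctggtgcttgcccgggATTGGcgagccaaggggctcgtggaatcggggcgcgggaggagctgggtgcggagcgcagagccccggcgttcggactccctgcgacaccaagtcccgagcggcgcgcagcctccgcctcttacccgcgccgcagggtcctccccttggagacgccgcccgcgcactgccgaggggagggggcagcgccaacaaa
Col4a2: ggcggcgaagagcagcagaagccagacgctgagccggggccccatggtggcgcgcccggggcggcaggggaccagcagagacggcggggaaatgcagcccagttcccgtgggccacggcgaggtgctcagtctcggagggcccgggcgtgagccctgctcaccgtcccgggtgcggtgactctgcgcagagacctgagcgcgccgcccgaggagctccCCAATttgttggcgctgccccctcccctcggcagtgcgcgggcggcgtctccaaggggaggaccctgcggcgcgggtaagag
Each window holds 1 CCAAT box, in reverse 145 bases before the Col4a1 start and 32 bases before the Col4a2 start, and neither holds GGAATG. Their GC content was 74.0% and 73.7%, against a median of 59.9% over all collagen windows.

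Col4a5 (ENSMUSG00000031274; chromosome X, 141475385 to 141689234, plus strand), the alpha5 chain of more specialised basement membranes such as that of the kidney glomerulus, rose. It stood at 123, 228, 254.9 and 250.3 CPM in the knockout libraries, against 55.2, 111, 120 and 56.8 CPM in WT. The groups did not overlap, but knockout replicate 1 stood only just above WT replicate 3. The log2 fold change came to 1.32 (SE 0.32, adjusted p = 0.0103 in edgeR). Its head-to-head neighbour Col4a6, whose gene lies 1.31 kb away, had 2 counts over the knockout libraries and 3 over WT. Col4a3 and Col4a4, the usual partners of Col4a5 in the glomerulus, were near the detection limit. Col4a4 passed the filter at 0.126, 0.640, 0.873 and 0.825 CPM in the knockout libraries, against 0.883, 0.273, 0.169 and 0.0710 CPM in WT. Those values overlapped, and the log2 fold change came to 0.82 (SE 0.78, adjusted p = 0.413 in edgeR). It was 1.81 without WT replicate 1 and 0.47 without WT replicate 4, and passed in neither case (edgeR adjusted p = 0.108 and 0.672). Col4a3 had 28 counts over the knockout libraries and 21 over WT and was not tested.

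Type VI, the beaded-filament collagen, was represented almost wholly by 1 chain. Col6a1 (ENSMUSG00000001119; chromosome 10, 76708792 to 76726168, minus strand), the alpha1 chain, stood at 47.4, 55.9, 64.0 and 56.4 CPM in knockout replicates 1 to 4, against 6.66, 12.4, 10.1 and 7.74 CPM in WT. The lowest knockout library, replicate 1, stood far above the highest WT library, replicate 2. Its log2 fold change of 2.60 (SE 0.21), a 6.07-fold difference, had the lowest adjusted p of the collagens (edgeR adjusted p = 0.000183), and it lay between 2.47 and 2.77 with 1 library left out. In normal tissue the alpha1 chain assembles with the alpha2 chain and with alpha3 or a relative of it. Col6a2, 85.2 kb from Col6a1 on the same strand, had 37 counts over the knockout libraries and 14 over WT, and Col6a3 had 28 and 7. Per kb of exon, Col6a1 averaged 12.8 ± 1.55 CPM in the knockout libraries and 2.10 ± 0.579 CPM in WT (SD, n = 4). On that scale the mean of Col6a2 was 0.262% of that of Col6a1 in the knockout libraries and 0.692% in WT, or 0.439% and 1.16% per kb of the longest coding transcript. Of the chains that can stand in for alpha3 in other tissues, Col6a4 had 21 counts over the knockout libraries and 0 over WT, Col6a5 had 55 and 10, and Col6a6 had 2 and 0.

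The Col6a1 window, at chr10:76725995-76726294 on the minus strand, is shown because this gene had the lowest adjusted p.
Col6a1: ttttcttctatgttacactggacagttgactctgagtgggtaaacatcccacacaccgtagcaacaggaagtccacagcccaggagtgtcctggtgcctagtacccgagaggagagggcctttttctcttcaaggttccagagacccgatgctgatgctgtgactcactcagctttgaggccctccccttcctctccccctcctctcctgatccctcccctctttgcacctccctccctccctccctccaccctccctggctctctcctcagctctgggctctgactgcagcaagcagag
It has no capitals, since it holds neither GGAATG nor CCAAT on either strand.

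**Figure D2:**
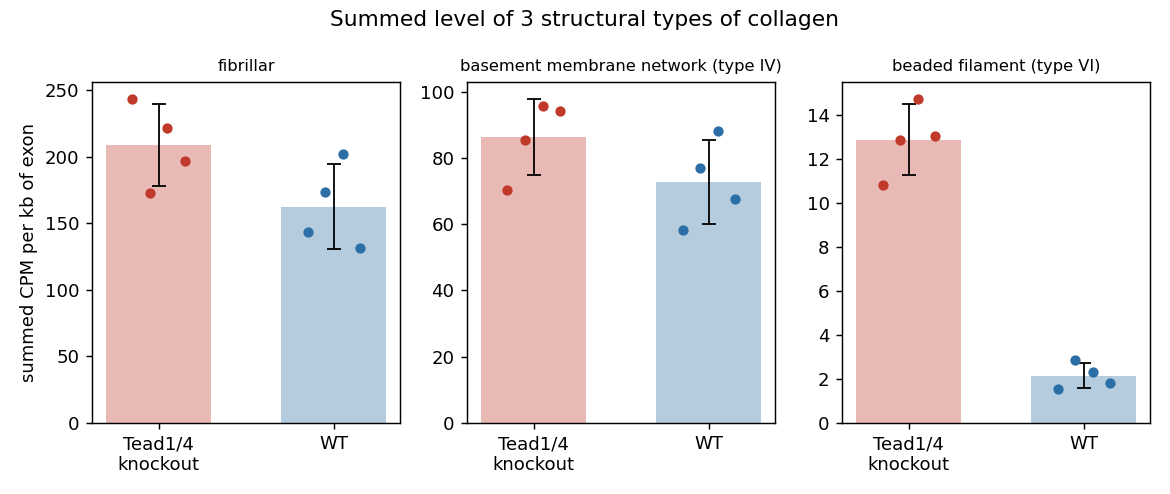
Sum of CPM per kb of exon over all members of the fibrillar, type IV and type VI classes in each library (points), with the mean (bar) and SD (whisker) of 4 libraries per genotype. Knockout and WT points overlap for the fibrillar and type IV sums and stand apart for type VI, at 10.8 to 14.8 in the knockout libraries and 1.54 to 2.85 in WT. The type VI sum is almost wholly Col6a1.

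Summed over each class, per kb of exon, the 3 structural types differed in how far the genotypes stood apart. The fibrillar sum was 209 ± 30.7 CPM per kb in the knockout libraries and 162 ± 31.8 in WT (SD, n = 4), a ratio of 1.29, and the type IV sum was 86.5 ± 11.7 against 72.8 ± 12.8 in WT, a ratio of 1.19. Both sums overlapped between the genotypes. The type VI sum was 12.9 ± 1.61 CPM per kb in the knockout libraries and 2.13 ± 0.576 in WT, a ratio of 6.04, with no overlap. Col6a1 alone averaged 12.8 and 2.10 on this scale, so the type VI sum is nearly that of 1 gene. As a share of all collagen on this scale, fibrillar genes made up 54.0% ± 7.03 in the knockout libraries and 59.8% ± 2.17 in WT. Type IV made up 22.4% ± 2.66 in the knockout libraries and 26.9% ± 1.76 in WT, and type VI 3.34% ± 0.355 and 0.784% ± 0.144. These are sums over chosen genes, and no test was made of them. Col1a2 alone made up 28.5% to 36.4% of the collagen level in the knockout libraries and 39.1% to 43.7% in WT. The merged exons of Col1a2 span 12426 bases and its longest coding transcript 5348. With the transcript as the length, its share averaged 47.7% ± 3.73 in the knockout libraries and 59.3% ± 1.95 in WT (SD, n = 4). On that length the fibrillar share was 64.7% ± 6.27 in the knockout libraries and 71.4% ± 1.22 in WT, the type IV share 15.5% ± 2.11 and 17.5% ± 0.967, and the type VI share 2.32% ± 0.289 and 0.511% ± 0.0914. The shares of types thus depend on the length used, while the order of the genotypes in each was the same on both lengths.

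The count of genes called is given by type, though the tested genes are those that passed the filter, some of them through the knockout libraries alone. Against the 20.9% called higher over all rows, it was 4 of 6 for fibrillar genes, with a median log2 fold change of 1.21, and 1 of 1 for type VI. It was 1 of 4 for type IV (25.0%, near the share over all rows), with a median of 0.38. All 5 tested FACIT genes rose, with a median of 3.05, though Col9a3 among them passed the filter mainly through the knockout libraries. No difference between types was tested. In the order of levels per kb, Col1a2 came first in both genotypes. Col5a1 was the second in the knockout libraries and the sixth in WT, and Col4a1 was the fifth in the knockout libraries and the second in WT.

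**Figure D3:**
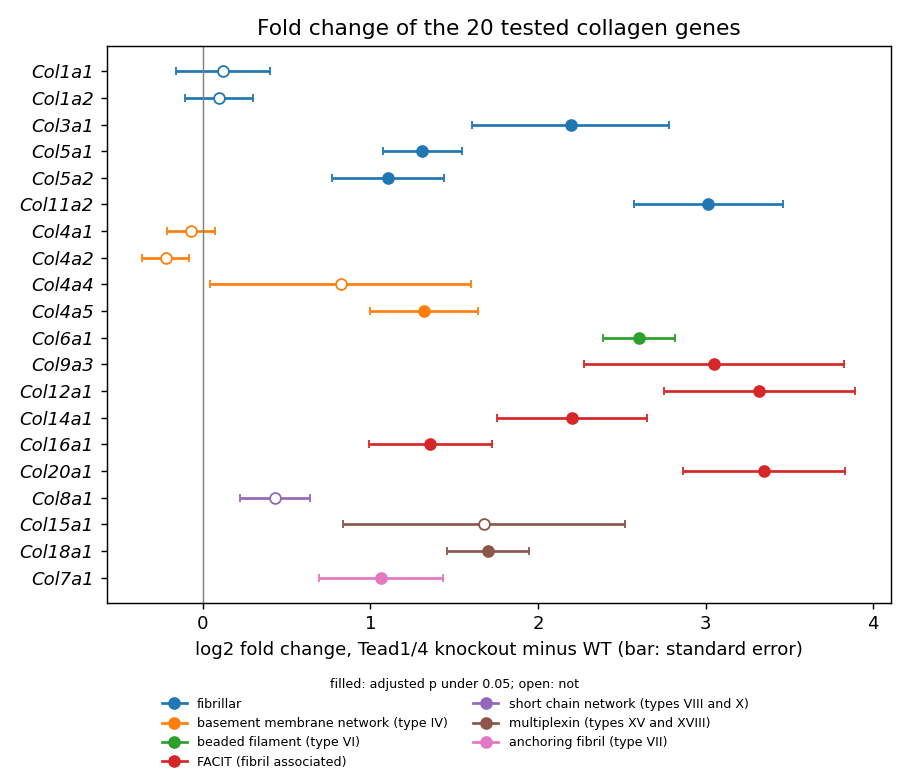
Log2 fold change, Tead1/4 knockout minus WT, with its standard error for the 20 tested collagen genes, coloured by structural type, with filled points for an adjusted p under 0.05 in edgeR. The 13 filled points lie between 1.06 and 3.35, and the open points include both type I chains and both common type IV chains near 0.

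The fibril-associated collagens, which bind along fibres without forming them, included large fold changes. Col20a1 (ENSMUSG00000016356; chromosome 2, 180986535 to 181018363, plus strand) stood at 8.66, 25.4, 36.0 and 36.4 CPM in the knockout libraries, against 3.72, 2.66, 2.86 and 1.21 CPM in WT. The groups did not overlap, although knockout replicate 1 stood much lower than the other knockout libraries. The log2 fold change came to 3.35 (SE 0.48, adjusted p = 0.00130 in edgeR). It was the largest of the 20 collagens tested in this fit. Of 18 other settings, it remained the largest of these genes in 12, and Col12a1 or Col9a3 exceeded it in the other 6. Col12a1 (chromosome 9, 79598991 to 79718831, minus strand), a FACIT of tendon and other dense connective tissue, stood at 2.53, 13.2, 11.1 and 11.2 CPM in the knockout libraries, against 0.773, 1.43, 1.21 and 0.355 CPM in WT. Knockout replicate 1 was again the lowest knockout library and above every WT library, and the log2 fold change came to 3.32 (SE 0.57, adjusted p = 0.00246 in edgeR). It lay between 3.02 and 3.62 with 1 library left out.

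Col16a1 (chromosome 4, 130047840 to 130099283, plus strand) was the most abundant FACIT gene. It stood at 127, 199, 215 and 192 CPM in the knockout libraries, against 44.4, 92.7, 115 and 33.5 CPM in WT. Knockout replicate 1 was close to WT replicate 3, the groups did not overlap, and the log2 fold change came to 1.36 (SE 0.37, adjusted p = 0.0161 in edgeR). Col14a1, a relative of Col12a1, was the FACIT gene for which knockout replicate 1 was the highest knockout library, at 7.49, 6.33, 5.93 and 4.95 CPM in the knockout libraries, against 1.25, 2.29, 1.42 and 0.390 CPM in WT. Its groups did not overlap, and the log2 fold change came to 2.20 (SE 0.45, adjusted p = 0.00489 in edgeR). Col9a3, 1 of 3 chains of the cartilage FACIT type IX, stood at 2.24, 3.99, 4.04 and 4.62 CPM in the knockout libraries, against 0, 0.546, 1.01 and 0.213 CPM in WT. Its log2 fold change came to 3.05 (SE 0.77, adjusted p = 0.0122 in edgeR), and the other type IX genes, Col9a1 and Col9a2, were at 0 in all libraries. Col9a3 had 492 counts over the knockout libraries and 52 over WT, and passed the filter mainly through the knockout libraries. Exons of Col9a3 overlap Tcfl5 on the opposite strand, which averaged 0.0905 ± 0.0660 CPM in the knockout libraries (SD, n = 4) and was at 0 in the 4 WT libraries. Col22a1 had 28 counts over the knockout libraries and 0 over WT, and Col19a1 had 3 and 0.

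The Col20a1 window, at chr2:180986285-180986584 on the plus strand, is shown because this gene had a large fold change and a GGAATG match.
Col20a1: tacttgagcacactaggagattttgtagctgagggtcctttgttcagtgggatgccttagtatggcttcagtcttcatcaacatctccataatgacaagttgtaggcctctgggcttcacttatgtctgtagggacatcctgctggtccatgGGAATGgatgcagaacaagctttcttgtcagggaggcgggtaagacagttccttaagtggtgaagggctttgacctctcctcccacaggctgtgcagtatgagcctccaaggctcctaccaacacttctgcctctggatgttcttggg
It holds GGAATG with its first base 98 bases before the start.

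Among collagens of other structure, Col18a1 rose and Col8a1 did not pass. Col18a1 (ENSMUSG00000001435; chromosome 10, 77052178 to 77166548, minus strand), a basement membrane multiplexin whose end fragment is endostatin, stood at 116, 127, 177 and 179.6 CPM in the knockout libraries, against 27.9, 53.4, 57.0 and 45.9 CPM in WT. Each knockout library stood above the highest WT library by a wide margin, and the log2 fold change came to 1.70 (SE 0.25, adjusted p = 0.00130 in edgeR). Col15a1, the other multiplexin, was at 0.190, 0.670, 0.553 and 0.672 CPM in the knockout libraries, against 0.442, 0.137, 0 and 0.0710 CPM in WT, and did not pass (log2 fold change 1.68, SE 0.84, edgeR adjusted p = 0.132). It passed without WT replicate 1, the highest WT library (log2 fold change 2.84, edgeR adjusted p = 0.0443). Col8a1 (chromosome 16, 57624258 to 57754737, minus strand), a short-chain collagen of vessel walls and the cornea, stood at 102, 165, 175 and 200.6 CPM in the knockout libraries, against 116, 98.5, 129 and 133 CPM in WT. The overlap came from knockout replicate 1 alone. The log2 fold change came to 0.43 (SE 0.21, adjusted p = 0.119 in edgeR), and it passed without knockout replicate 1 (0.58, adjusted p = 0.0102) and with upper-quartile factors (0.62, adjusted p = 0.0429) or library size only (0.63, adjusted p = 0.0485). Col7a1, the anchoring fibril collagen that ties epithelium to the tissue beneath it, stood at 17.7, 11.8, 14.5 and 13.7 CPM in the knockout libraries, against 3.94, 8.50, 11.6 and 3.48 CPM in WT. Knockout replicate 2 stood barely above WT replicate 3. Its log2 fold change of 1.06 (SE 0.37, edgeR adjusted p = 0.0425) no longer passed when any single library other than WT replicate 3 was left out (adjusted p = 0.0549 to 0.102).

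Col18a1 has 2 promoter windows. The one at chr10:77113656-77113955 on the minus strand lies inside the annotated gene and is shown because it holds GGAATG on both strands. The other, at chr10:77166481-77166780, covers the annotated start of the gene. It holds CCAAT in reverse 210 bases before that start, and no GGAATG.
Col18a1: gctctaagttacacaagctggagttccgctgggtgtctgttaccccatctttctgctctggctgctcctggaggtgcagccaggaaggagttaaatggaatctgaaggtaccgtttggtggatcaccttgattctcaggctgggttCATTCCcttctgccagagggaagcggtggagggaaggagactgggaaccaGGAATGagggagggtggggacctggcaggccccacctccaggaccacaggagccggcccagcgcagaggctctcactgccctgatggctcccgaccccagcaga
In the window shown, the match in reverse begins 104 bases before this internal start and the other 54 bases before it. GGAATG on either strand was found in 5 of the 38 collagen windows (13.2%) and in 14.7% of all 32851 windows of that length, and CCAAT in 13 of 38 (34.2%) and in 37.4%. Of the 10 windows of collagens that rose, 3 held GGAATG, and of the 6 windows of tested collagens that did not pass, 0 did. Those 10 windows cover 9 of the 13 genes that rose, and the 6 cover 6 of the 7 that did not pass. These are few windows, and the difference was not tested. The 2 remaining windows with GGAATG belong to Col4a6 and Col6a2, which had too few counts to be tested.

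The 24 collagens that did not pass the filter had at most 23 counts in any library. Of these, 20 had a count in some library, and 18 of the 20 were at 0 in knockout replicate 1. Rows above 0 among the 24 numbered 14, 17 and 16 in knockout replicates 2, 3 and 4 and 2 in knockout replicate 1, against 3, 7, 8 and 9 in WT replicates 1 to 4. Over all rows, 17759, 17948 and 17775 were above 0 in knockout replicates 2, 3 and 4, and 14345 in knockout replicate 1. In WT replicates 1 to 4 these numbered 14794, 15430, 15385 and 14566, so the pattern was not particular to collagens. Olfactory receptor genes, best known from sensory neurons of the nose, also had most rows above 0 in knockout replicates 2 to 4. Of 1104 such rows, 78, 79 and 66 were above 0 in knockout replicates 2, 3 and 4 and 26 in knockout replicate 1, against 31 to 41 in the WT libraries. What share of the low collagen counts moves with those rows was not tested. With no filter on low counts, Col17a1, a transmembrane collagen of epithelial hemidesmosomes, and Col22a1 were also called higher (edgeR adjusted p = 0.0433 and 0.0473), with 53 and 28 counts over the knockout libraries, against 2 and 0 over WT. Both were at 0 in knockout replicate 1. The members not yet named had few counts too: Col8a2 had 17 over the knockout libraries and 2 over WT, and Col10a1 had 22 and 19. Col28a1 had 22 counts over the knockout libraries and 0 over WT, Col13a1 had 6 and 0, and Col23a1 had 4 and 9.

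Ratios between chain genes in the same library, per kb of exon, stood apart for some pairs. Col4a5 relative to Col4a1 was 0.610, 1.16, 1.20 and 1.18 in the knockout libraries, against 0.309, 0.512, 0.462 and 0.274 in WT. Col3a1 relative to Col1a1 was 0.425, 0.301, 0.558 and 0.510 in the knockout libraries, against 0.0618, 0.186, 0.139 and 0.0286 in WT. Neither of these ratios overlapped between the genotypes. Col4a5 and Col3a1 were called higher and Col4a1 and Col1a1 were not, so these ratios are not separate evidence. Per kb of the longest coding transcript Col3a1 relative to Col1a1 averaged 0.714 ± 0.1797 in the knockout libraries and 0.166 ± 0.115 in WT (SD, n = 4), against 0.448 ± 0.113 and 0.104 ± 0.0719 per kb of merged exons. Col1a1 relative to Col1a2 overlapped, at 0.260 ± 0.0736 in the knockout libraries and 0.269 ± 0.0958 in WT (SD, n = 4), or 0.124 ± 0.0351 and 0.128 ± 0.0456 per kb of the longest coding transcript. Type I collagen protein carries more alpha1 than alpha2 chains, whereas Col1a2 was the higher mRNA in all 8 libraries on either length. Col4a1 relative to Col4a2 was 1.28 ± 0.0683 in the knockout libraries and 1.15 ± 0.0506 in WT, with overlap. Col5a2 stood at 0.707% of the per-kb level of Col5a1 in the knockout libraries and 0.813% in WT.

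**Figure D4:**
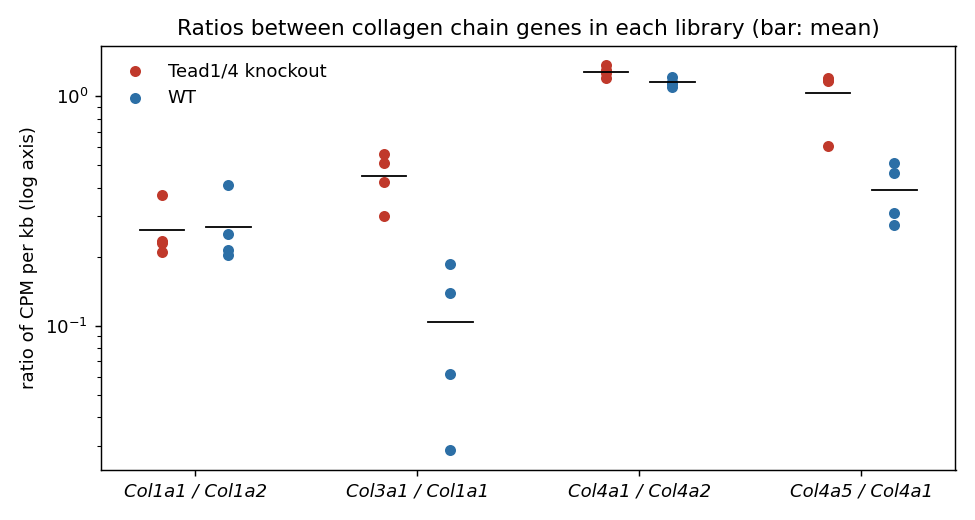
Ratio of CPM per kb of exon (log axis) between collagen chain genes in each of the 4 Tead1/4 knockout and 4 WT libraries, with bars at the means. The knockout points stand above the WT points for Col3a1 over Col1a1 and Col4a5 over Col4a1 and overlap them for Col1a1 over Col1a2 and Col4a1 over Col4a2.

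Genes that modify, fold, process, join or bind collagen did not move as one. Of 50 such genes with a row, 32 were tested, 7 rose and 2 fell, with a median log2 fold change of 0.08. Mep1a, among those that rose, passed the filter only through the knockout libraries. The share that rose, 21.9%, was near the 20.9% over all rows, and the share that fell, 6.25%, was below the 20.6% over all rows, a difference that was not tested. Among 13 tested genes of hydroxylation and glycosylation, Colgalt1, which adds galactose to hydroxylysine, stood at 103, 92.5, 98.4 and 98.3 CPM in the knockout libraries, against 195, 186, 177 and 194 CPM in WT. The groups were far apart with little spread, and Colgalt1 fell by 0.94 on the log2 scale (SE 0.12, edgeR adjusted p = 0.000732). Plod1, a lysyl hydroxylase, rose by 0.66 (SE 0.16, edgeR adjusted p = 0.0110), a call lost with WT pairs summed (adjusted p = 0.0774). Of 8 tested genes of folding and export, Fkbp14, a prolyl isomerase of the endoplasmic reticulum, averaged 9.07 ± 1.94 CPM in the knockout libraries and 2.20 ± 0.556 CPM in WT (log2 fold change 2.04, SE 0.27, edgeR adjusted p = 0.000919, SD over n = 4). Mia2, which helps load large cargo for export, fell by 0.83 (SE 0.21, edgeR adjusted p = 0.0126). Serpinh1, the collagen chaperone HSP47, was not called (log2 fold change -0.35, edgeR adjusted p = 0.198) and was named after its value was seen.

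Of 4 tested propeptide-processing genes, Bmp1, the protease that trims the end of fibrillar procollagens, averaged 102 ± 17.0 CPM in the knockout libraries and 67.5 ± 14.0 CPM in WT (SD, n = 4; log2 fold change 0.59, edgeR adjusted p = 0.0303). That call was lost without any of 5 single libraries (adjusted p = 0.0536 to 0.0901) and with WT pairs summed (adjusted p = 0.114). Mep1a, a meprin that can also trim procollagen, had 114 counts over the knockout libraries and 4 over WT, all in replicate 4 (log2 fold change 4.49, SE 1.00, edgeR adjusted p = 0.00705). The size of that fold change rests on those 4 counts, and without WT replicate 4 the fitted value was 7.75. Mep1a passed the filter only through the knockout libraries, so its call is partly set by the filter. Of the lysyl oxidase family, which cross-links collagen, Loxl3 stood at 101, 129, 95.4 and 85.0 CPM in the knockout libraries, against 30.7, 43.6, 54.2 and 37.3 CPM in WT. It rose by 1.30 (SE 0.20, edgeR adjusted p = 0.00176), with no overlap. Loxl4 was not called (-0.04, edgeR adjusted p = 0.830), and its sign was positive with upper-quartile factors (0.14), library size only or the stricter filter. Lox, Loxl1 and Loxl2 did not pass the filter. Of 5 tested collagen receptors, Mrc2, which takes up collagen for breakdown, stood at 49.4, 61.8, 60.2 and 51.1 CPM in the knockout libraries, against 7.14, 13.2, 15.8 and 5.25 CPM in WT. Its groups lay far apart, and it rose by 2.42 (SE 0.33, edgeR adjusted p = 0.000940). Itga10, an integrin chain that binds collagen, rose by 1.81 (SE 0.48, edgeR adjusted p = 0.0143), with overlap between the genotypes and a call lost with WT pairs summed (adjusted p = 0.0754).

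Markers of other cells were measured in the same libraries, since collagens are best known from stroma. The summed level of 8 fibroblast markers was 176 to 249.6 CPM in the knockout libraries and 97.9 to 166 CPM in WT. Of 5 tested members, 4 rose (Pdgfra, Pdgfrb, Dcn and Dpt), where 20.9% of all rows did. Dcn and Dpt had 4 and 15 counts over WT, against 1047 and 114 over the knockout libraries. Both passed the filter mainly through the knockout libraries, so the 4 of 5 is partly set by the filter. Twist2 averaged 80.1 CPM in the knockout libraries and 82.8 CPM in WT and was not called, while Thy1 averaged 0.0153 and 0.0169 CPM. The 6 pericyte and smooth muscle markers summed to 5.97 to 10.5 CPM in the knockout libraries and 0.810 to 1.17 CPM in WT. Most of that sum was Des, at a mean of 8.29 and 0.819 CPM, and Rgs5 was at 0. Acta2, Cspg4, Mcam and Myh11 averaged 0.0839 to 0.286 CPM in the knockout libraries and 0.0184 to 0.0599 CPM in WT. The 6 endothelial markers summed to 7.74 to 14.1 CPM in the knockout libraries and 0 to 0.775 CPM in WT. Most of that sum was Vwf, at a mean of 5.58 and 0.118 CPM, and Tie1, at 4.11 and 0.0842 CPM. These had 14 and 10 counts over WT, and passed the filter mainly through the knockout libraries. Kdr was at 0, while Pecam1 averaged 0.0457 and 0.0437 CPM, Cdh5 0.0371 and 0, and Tek 0.181 and 0. The 6 leukocyte markers summed to at most 0.291 CPM in any library, with Adgre1 and Cd3e at 0. The 10 colon epithelial markers summed to 110.1 to 144.7 CPM in the knockout libraries and 56.8 to 106.5 CPM in WT, and 2 of 4 tested members rose. These were Krt18, at a mean of 76.3 CPM in the knockout libraries and 38.5 CPM in WT, and Lgals4, at 6.02 and 0.225 CPM. Lgals4 had 800 counts over the knockout libraries and 26 over WT, and passed the filter mainly through the knockout libraries. Krt20 averaged 47.4 CPM in the knockout libraries and 34.6 CPM in WT and was not called. Krt8 averaged 0.896 and 0.328 CPM and was not called either. Most of the sum thus came from Krt18 and Krt20. Epcam was at 0, and Cdh1 averaged 0.0752 CPM in the knockout libraries and 0 in WT. In the same order Krt19 averaged 0.0153 and 0 CPM, Cdx1 0.0237 and 0, Cdx2 0 and 0.043, and Vil1 0.13 and 0.035. The part of these markers in the collagen levels was not tested.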

How the data were processed

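RNA was extracted with TRIzol and made into mRNA libraries with a Yeasen kit, per the labels. The submitters' processing notes name HISAT2, StringTie and GRCm38 with no version. No source used here gives the counting program, or says how strand and shared reads were treated. The deposited raw counts come in 2 tables with identical values, of which 1 was analysed. Counts were filtered with filterByExpr (minimum count 10, minimum total 15), scaled with TMM and tested across all 13265 remaining rows with edgeR's quasi-likelihood functions (version 4.0.16, in R 4.3.3), two-sided, with Benjamini-Hochberg adjustment; SE is the size of the log2 fold change divided by the square root of F. Lengths are merged exons of GENCODE M21. Total counts of 29679405 to 32774905 set the precision of low genes, and no 2 libraries of a genotype agreed within sampling noise.

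The collagen rule, the classes, the 5 lists of collagen-related genes and the marker lists were chosen with earlier results of these data known. Named are all collagens called or averaging at least 1 CPM, their partner chains, and, of each list of related genes, the 2 with the smallest p and any called at 2-fold or more. Alternatives were DESeq2 size factors, upper-quartile factors or library size only; no filter or 5 CPM in 4 libraries; DESeq2 1.42.0 and limma-voom 3.58.1; the replicate number as a block; a threshold of 0.01; annotated genes only; CPM without length; and each library left out. WT pairs summed and the transcript length were added after seeing the data.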

Additional observations from a re-analysis of the deposited data

How the results depend on the processing

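Of the 13 collagens called, 9 were called under all settings at an adjusted p under 0.05 that tested them, and no called collagen changed sign. The number of collagens called higher was 11 to 15 with 1 library left out and 7 at an adjusted p under 0.01. It was within 1.5 times of 13 under every other setting run, and no collagen was called lower under any. Collagen-related genes called at an adjusted p under 0.01 numbered 5, with 4 higher and 1 lower, and 4 were higher with WT pairs summed; with 1 library left out 8 to 11 were called, 6 to 8 higher and 2 to 3 lower. Over all rows, 5513 were called (2779 higher, 2734 lower). With WT pairs summed 3134 of 14382 rows tested were called (1652 and 1482), and at an adjusted p under 0.01 2736 (1488 and 1248). With 1 library left out the number was 3809 to 6829 (2041 to 3420 higher, and 1768 to 3409 lower, the lowest without knockout replicate 3). The share of all calls that were higher was 50.4% under TMM, 64.6% under upper-quartile scaling and 63.5% under library size alone, and these last settings put the all-row median at 0.20 on the log2 scale, against 0.02 under TMM.

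Signs turned for genes near 0 that were not called. With 1 library left out, Col1a1 ranged from -0.197 (without knockout replicate 1) to 0.258, being -0.050 without WT replicate 4. In the same way Col1a2 ranged from -0.006 (without WT replicate 1) to 0.206, Col4a1 from -0.156 to 0.012 (without WT replicate 3) and Loxl4 from -0.105 to 0.016 (without knockout replicate 1). Under the stricter filter Col4a1 was at 0.011 and Loxl4 at 0.042, under library size alone at 0.107 and 0.145, and under upper-quartile scaling at 0.105 and 0.140. Tead1 kept its call under all settings run, at -1.77 to -1.33 with 1 library left out. Tead4 ranged from -0.83 to -0.57 with 1 library left out. Its call was lost with WT pairs summed (-0.74, edgeR adjusted p = 0.0653), library size only (-0.51, 0.0800), upper-quartile factors (-0.51, 0.0692) and at a threshold of 0.01 (-0.70, 0.0261), and without WT replicate 1 or 4 or knockout replicate 2 or 3. The cause of these changes was not tested. The log2 ratio of summed levels was 0.27 to 0.48 for fibrillar genes, 0.16 to 0.35 for type IV and 2.47 to 2.77 for type VI with 1 library left out.

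Same-numbered libraries did not deviate together (correlations of -0.0445 to 0.000203 over all rows tested), so the replicate numbers were not taken as pairs. With the replicate block 12 collagens were called, the call for Col5a2 being lost. Collagens under about 1 CPM rest on few counts.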
